A study of Mus musculus with 8 samples.

Results

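Interferon regulatory factors (IRFs) are transcription factors that bind repeats of the letters GAAA, the core of interferon-stimulated response elements (ISRE), in the promoters of interferons and of the genes that interferons induce. Irf1, Irf2, Irf3, Irf4, Irf5, Irf7 and Irf8 were taken by gene symbol and made up 7 of the 750 immune genes counted in these tumors. Irf9 was not analysed here. The RefSeq transcript listed for each of the 7 probes carried the same symbol. RNA from 8 peritoneal tumor samples was counted with the NanoString nCounter immune panel for mouse, in which a barcoded probe is counted for each RNA molecule it binds, to ask which immune transcripts change with activation of STING, the receptor for cyclic dinucleotides. The tumors grew from MC38 cells, a mouse colon cancer line, in the peritoneum of wild-type male C57BL/6 mice that were 7 to 8 weeks old. Of the 8 samples, 4 are labelled as control and 4 as STING agonist. By the study's text, controls received phosphate-buffered saline (PBS). Treated mice received RR-CDA, a synthetic STING agonist, in 2 intraperitoneal injections of 15 µg. Injections began on day 7 after implantation, and the tumors were collected 10 days after the first injection. The model is 1 implanted cell line in hosts with intact immunity, and whole tumors were lysed, so cancer, immune and vessel RNA were counted together. The label colon names the origin of the line: of 4 epithelial genes, Cdh1 had the highest count, with a mean of 24.1, and Epcam had a mean of 10.1, near the background.

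Total counts of the 750 genes ranged from 241724 to 403150 in PBS tumors and from 241506 to 414698 in treated tumors. The background was taken 2 SD above the mean of the negative probes and averaged 8.62 counts over the 8 tumors. PBS tumors 2 and 4 differed by less than the sampling noise, with 0.404 as their chi-square per degree over 358 genes with moderate counts, against 5.89 to 12.6 in the 11 other pairs within a group. They were counted as 1 sample, the rounded mean of their counts, which leaves n = 3 PBS samples against 4 treated ones. In treated tumor 4, the 7 hepatocyte genes on the panel summed to 1398 normalized counts, against 23.2 to 62.0 in the other samples. Ambp, a plasma protein gene of the liver and the most abundant of these genes, reached 762 normalized counts there and at most 11.7 elsewhere. Some results are therefore also given without that tumor. The labels do not say that each sample came from a separate animal, so p-values measure the spread between these samples only. The study describes these data as pooled from separate experiments and does not say which tumor came from which, so no batch could be compared. A normalized count is a count divided by the sample's scale, which was set by the geometric mean of 20 housekeeping genes.

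IRF3 and IRF7 are phosphorylated by TBK1 and related kinases below STING, RIG-I-like receptors and Toll-like receptors, and they then switch on type I interferon genes, while IRF5 acts below Toll-like receptors and MyD88 on inflammatory cytokines. IRF1 is induced by interferon-gamma and drives chemokine and antigen presentation genes, and IRF2 binds the same sites and mostly opposes it. IRF8 directs the development of monocytes, macrophages and dendritic cells, and IRF4 acts in plasma cells, activated T cells and some dendritic cells. Phosphorylation is a change of the protein, which RNA counts do not measure.

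Irf1 stood out among the 7 genes: its mean was 2.01-fold higher after the STING agonist, and every treated tumor lay above every PBS sample. Irf7 and Irf8 had means 1.54-fold and 1.62-fold higher, and Irf2 had a mean 1.25-fold higher with little spread. Irf3 and Irf5 overlapped between the groups, and Irf4 was counted near the background. At an unadjusted p under 0.05 in edgeR, 3 of the 7 genes were higher after treatment (Irf1, Irf7 and Irf8) and 0 were lower, where the shares of the 750 genes were 17.7% and 1.33%. The groups did not overlap for 3 of the 7 genes (Irf1, Irf2 and Irf7), all higher after treatment, where 16.8% of the 750 genes were free of overlap and higher and 1.47% free of overlap and lower. After Benjamini-Hochberg adjustment over the 750 genes, edgeR called 0 of the 7 genes and 0 of all genes, a share of 0%. DESeq2 called 52 of 536 genes with an adjusted p, or 9.70%, and Irf1 was among them.

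**Figure D1:**
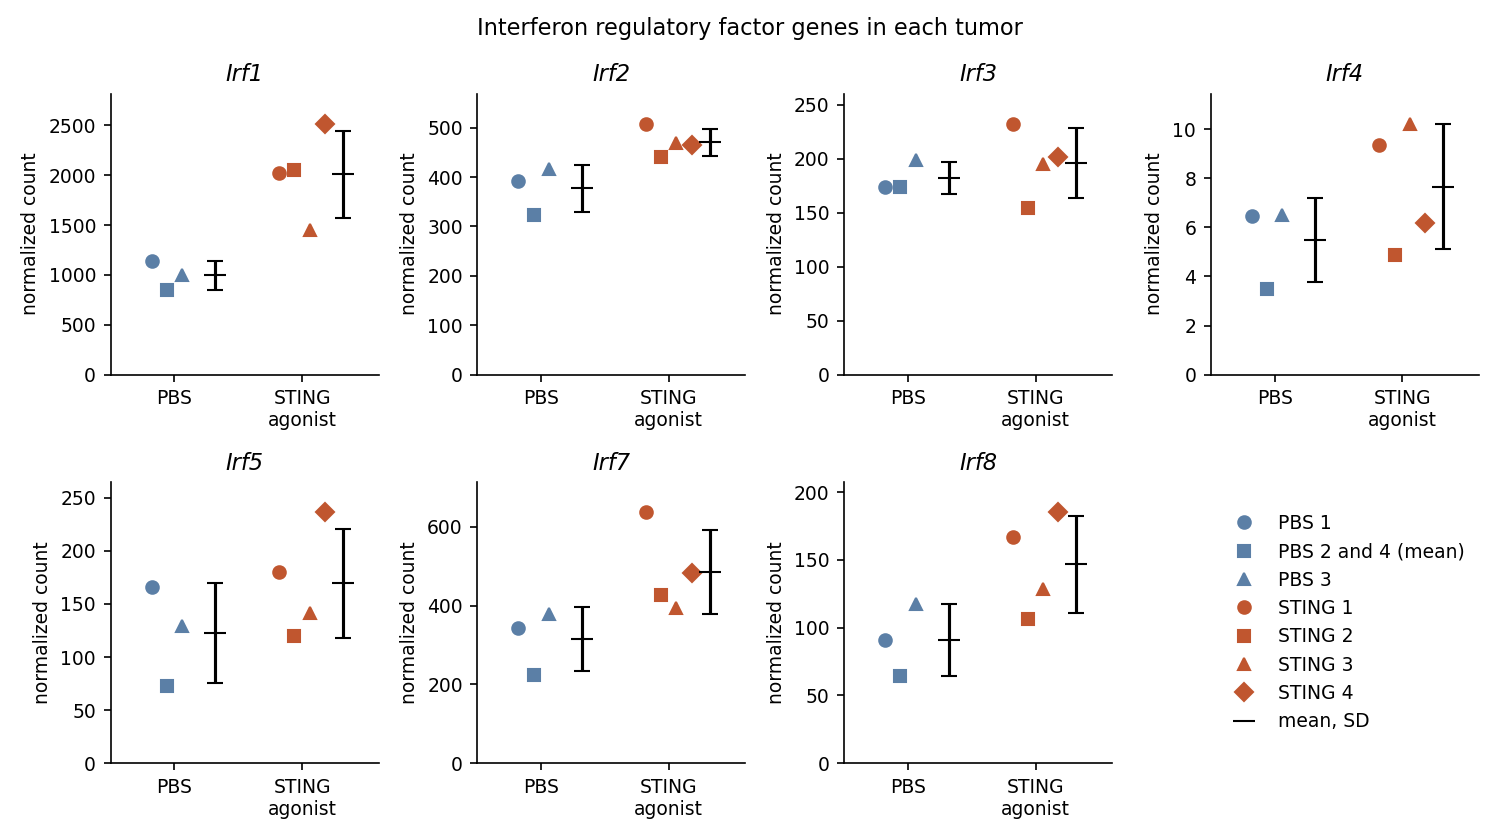
Normalized counts of the 7 interferon regulatory factor genes (vertical axes, linear and from 0) in each PBS sample (blue) and each treated tumor (orange), with the mean and SD of each group in black. Treated tumors lie above all PBS samples for Irf1, Irf2 and Irf7, and Irf4 stays between 3.50 and 10.2 normalized counts.

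How far the other genes moved depends on the scale. With housekeeping genes as the scale, the median log2 fold change of the 750 genes was 0.21, and with TMM, which scales to the bulk of the panel, it was -0.02, a shift of -0.23. Against the median of the panel, 6 of the 7 genes lay higher with either scale, and Irf3 lay lower. With TMM, 1 of the 7 genes (Irf1) was higher at an unadjusted p under 0.05, where 11.6% of the 750 genes were higher. When PBS tumors 2 and 4 were left out, an alternative chosen after seeing the data, the count was again 1 of 7 (Irf1), beside 12.0% of all genes. With all 8 tumors as separate samples it was 4 of 7 (Irf2 joined), beside 24.8%. Without treated tumor 1 it was 1, beside 77 of the 750 genes, and without PBS sample 3 it was 4, beside 153. Without treated tumor 4 and without PBS sample 1 it was 2, beside 79 and 93 of the 750 genes.

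**Figure D2:**
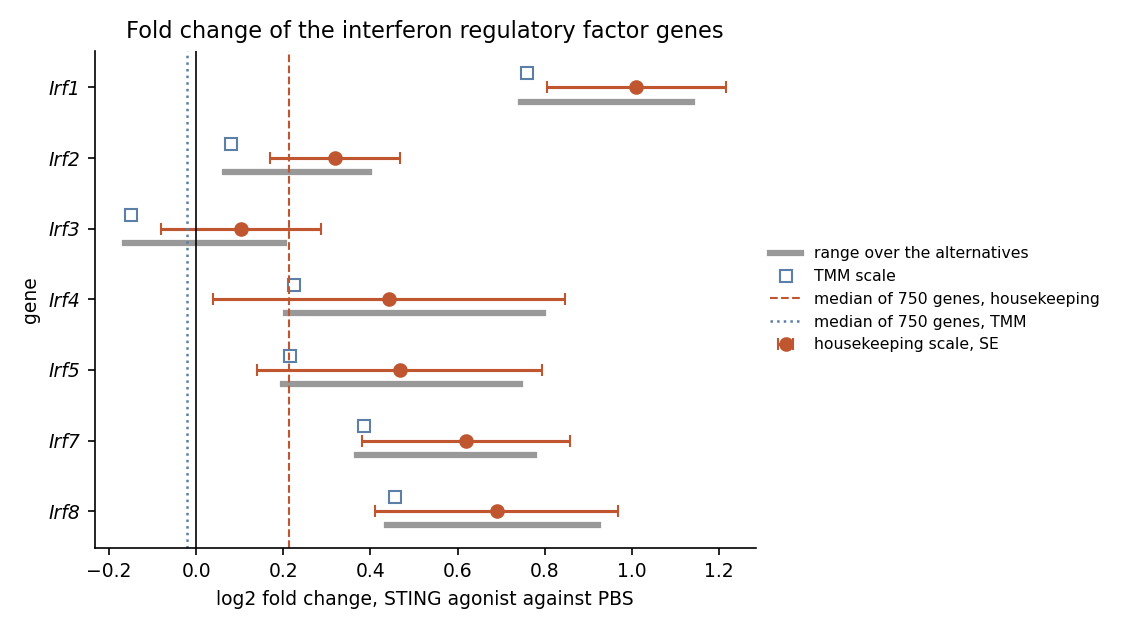
Log2 fold change of each gene after the STING agonist (horizontal axis) with the housekeeping scale (orange, with SE) and with TMM (open squares), and the range over the alternatives in gray. Dashed and dotted lines mark the median of the 750 genes at 0.21 and -0.02, and Irf3 is the gene whose direction turns with the scale.

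Irf3, one of the factors that act directly below the sensors, was counted in every tumor. Its normalized count was 174 in PBS sample 1, 174 in the mean of PBS tumors 2 and 4, and 199 in PBS sample 3. In treated tumors 1 to 4 it was 232, 154, 195 and 201. Treated tumor 2 was the lowest and treated tumor 1 the highest of all samples, and the groups overlapped. The means were 182 ± 14.5 (SD, n = 3) and 196 ± 32.2 (SD, n = 4), and the log2 fold change was 0.10 (SE 0.18, edgeR adjusted p = 0.838). It turned to -0.15 with TMM and to -0.16 with the size factors of DESeq2, so no direction was settled for Irf3.

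Irf7, which interferons induce and which amplifies type I interferon production, had normalized counts of 343, 224 and 379.7 in PBS sample 1, the mean of PBS tumors 2 and 4, and PBS sample 3. Treated tumors 1 to 4 had 638, 427, 394 and 484. The lowest treated tumor (3) lay just above the highest PBS sample (3), and treated tumor 1 stood above the rest. The means were 316 ± 81.5 (SD, n = 3) and 486 ± 108 (SD, n = 4), with a log2 fold change of 0.62 (SE 0.24, edgeR adjusted p = 0.223). In the two-sided exact permutation test of log2 values, 2 of the 35 arrangements of the samples gave a difference as large (exact p = 0.0571, where 0.0286 is the smallest p possible). Over the 20 alternatives, tests of other tools included, the unadjusted p was under 0.05 in 14, and among the others the edgeR value was 0.0696 with TMM (log2 fold change 0.38), 0.0809 without treated tumor 1 and 0.0869 without PBS tumors 2 and 4.

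Irf5 had the widest relative spread of the 7 genes in the PBS samples, with an SD of 38.5% of its mean. Its normalized counts were 166, 72.3 and 129 in the PBS samples, in the same order, and 179.9, 119.8, 141 and 236 in treated tumors 1 to 4. PBS tumors 2 and 4 were the low end and treated tumor 4 the high end, and 2 of the 4 treated tumors lay above all PBS samples. The log2 fold change was 0.47 (SE 0.33, edgeR adjusted p = 0.470), and 0.26 without treated tumor 4. It was 0.20 without PBS tumors 2 and 4, 0.22 with TMM and 0.74 without PBS sample 1.

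Irf1, the factor downstream of interferon-gamma, had normalized counts of 1142 in PBS sample 1, 852 in the mean of PBS tumors 2 and 4 (whose counts were 798 and 663), and 1000.0 in PBS sample 3. In treated tumors 1 to 4 the normalized counts were 2023, 2050.0, 1449 and 2517. The groups did not overlap, treated tumor 3 was the lowest of its group, and treated tumor 4, which carried the hepatocyte genes, was the highest. The means were 998 ± 145 (SD, n = 3) and 2009.8 ± 437 (SD, n = 4), and the log2 fold change was 1.01 (SE 0.21). Of the 750 genes, 88.0% had a lower fold change, and Irf1 had the second lowest unadjusted p, 0.000883, with an adjusted p of 0.171 in edgeR. Over the 20 alternatives the log2 fold change ranged from 0.74 to 1.14 and the adjusted p from 0.00211 to 0.384. The adjusted p was under 0.05 in 2 of these alternatives: 0.00211 in the Wald test of DESeq2, and 0.0475 in edgeR without treated tumor 3. Without treated tumor 4 the log2 fold change was 0.88 (edgeR adjusted p = 0.323). The exact permutation p was 0.0571, since 2 of 35 arrangements gave as large a difference, and it was 0.0286 with all 8 tumors.

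Irf2, the factor that competes with IRF1, had normalized counts of 391, 323 and 416 in the PBS samples and of 508, 441, 468 and 464 in treated tumors 1 to 4. Both groups were tight and did not overlap, with treated tumor 2 as the lowest of its group. The means were 377 ± 48.4 (SD, n = 3) and 470.4 ± 27.7 (SD, n = 4), and the log2 fold change was 0.32 (SE 0.15, edgeR adjusted p = 0.282). The exact permutation p was 0.0286, the smallest possible. With TMM the log2 fold change was 0.08, and the exact permutation p was 0.257.

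Of the factors tied to blood cell types, Irf8 had normalized counts of 90.7, 64.1 and 117 in the PBS samples and of 167, 106, 129 and 185 in treated tumors 1 to 4. Treated tumors 1 and 4 were high, and treated tumor 2 lay below PBS sample 3, so 3 of the 4 treated tumors were above all PBS samples. The means were 90.7 ± 26.7 (SD, n = 3) and 147 ± 35.8 (SD, n = 4), and the log2 fold change was 0.69 (SE 0.28, edgeR adjusted p = 0.231; exact permutation p = 0.0857). For Irf8 the unadjusted p was under 0.05 in 13 of the 20 alternatives, tests of other tools included. Among the others the edgeR value was 0.0530 with TMM (log2 fold change 0.46), 0.0831 and 0.0944 without treated tumors 1 and 4, 0.0815 without PBS sample 1, and 0.109 without PBS tumors 2 and 4.

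Irf4, a factor of plasma cells and activated lymphocytes, was counted 7, 4, 9 and 2 times in PBS tumors 1 to 4 and 8, 4, 10 and 7 times in treated tumors 1 to 4. It was above the background of the same tumor in 2 of the 8 tumors, both treated (1 and 4). A difference in Irf4 was not detectable at this depth (edgeR log2 fold change 0.44, SE 0.40, adjusted p = 0.616).

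PBS tumors 2 and 4 gave the lowest PBS value for 7 of the 7 genes. Between the members other than Irf4, log2 normalized counts over the 7 samples were most alike for Irf2 and Irf7 (Pearson r = 0.956) and least alike for Irf1 and Irf3 (r = 0.240). These values are descriptions, since the samples share 2 groups and 1 scale.

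A ratio of 2 counts within a tumor does not depend on the scale, though each probe has its own efficiency, so only its change between tumors can be read. The ratio of Irf1 to its competitor Irf2 was 2.92, 2.64 and 2.40 in the PBS samples and 3.98, 4.65, 3.10 and 5.42 in treated tumors 1 to 4. Every treated tumor lay above every PBS sample, and the difference of mean log2 ratios was 0.67 (SE 0.19, exact permutation p = 0.0571). The ratio of Irf7 to Irf3 was 1.97, 1.29 and 1.91 in the PBS samples and 2.74, 2.77, 2.02 and 2.40 in the treated tumors. It did not overlap either, with treated tumor 3 close to the PBS samples and a log2 difference of 0.54 (SE 0.22, exact permutation p = 0.0571). Without PBS tumors 2 and 4 the log2 difference was 0.34 for Irf7 to Irf3 and 0.67 for Irf1 to Irf2. Ratios with Irf4 are not read here, since Irf4 lay at or below the background in 6 of the 8 tumors.

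Set against Ptprc, the gene of the leukocyte antigen CD45, the direction turned, which rests on this 1 gene. Of the 7 pan-leukocyte genes Ptprc had the highest fold, 2.39, beside 1.90 for Lcp1, 1.82 for Cd53, 1.59 for Itgb2, 1.23 for Cd48, 1.15 for Cd37 and 0.885 for Spn, and 1.64 for their sum. Ratios to the other 6 genes were not tested. Ptprc had normalized counts of 108, 42.0 and 111 in the PBS samples and of 257, 166, 140.0 and 267 in treated tumors 1 to 4. Its groups did not overlap (log2 fold change 1.24, SE 0.38, edgeR adjusted p = 0.181). The ratio to Ptprc had a lower mean after treatment for Irf1, Irf2, Irf3, Irf5, Irf7 and Irf8, and without PBS tumors 2 and 4 that of Irf1 turned to 0.02. For Irf3 the ratio was 1.61, 4.14 and 1.79 in the PBS samples and 0.905, 0.926, 1.39 and 0.752 in the treated tumors. For Irf5 it was 1.53, 1.72 and 1.16 against 0.700, 0.721, 1.01 and 0.884. For Irf7 it was 3.17, 5.33 and 3.42 against 2.48, 2.57, 2.82 and 1.81. In these 3 ratios every treated tumor lay below every PBS sample, with log2 differences of -1.24, -0.83 and -0.70, each at the smallest exact permutation p of 0.0286. The ratio of Irf2 to Ptprc did not overlap either (log2 difference -1.003, exact permutation p = 0.0571). The averaged PBS tumors 2 and 4 had the highest of each of these 4 ratios. Without them the log2 differences were smaller: -0.81 for Irf3, -0.70 for Irf5, -0.46 for Irf7, -0.65 for Irf2 and -0.39 for Irf8 (from -0.62). Without PBS tumor 2 alone, Irf3 to Ptprc had an exact permutation p of 0.0571. Irf1 to Ptprc had a difference of -0.34 (SE 0.38, exact permutation p = 0.429), with 1 of 4 treated tumors below all PBS samples. Adjusted over the 10 ratios, the lowest value of the exact permutation tests was 0.0952, and 0 ratios were under 0.05. In bulk tumors, more cells of a type and more RNA per cell cannot be told apart, and the part of leukocyte content in the members' values was not tested.

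**Figure D3:**
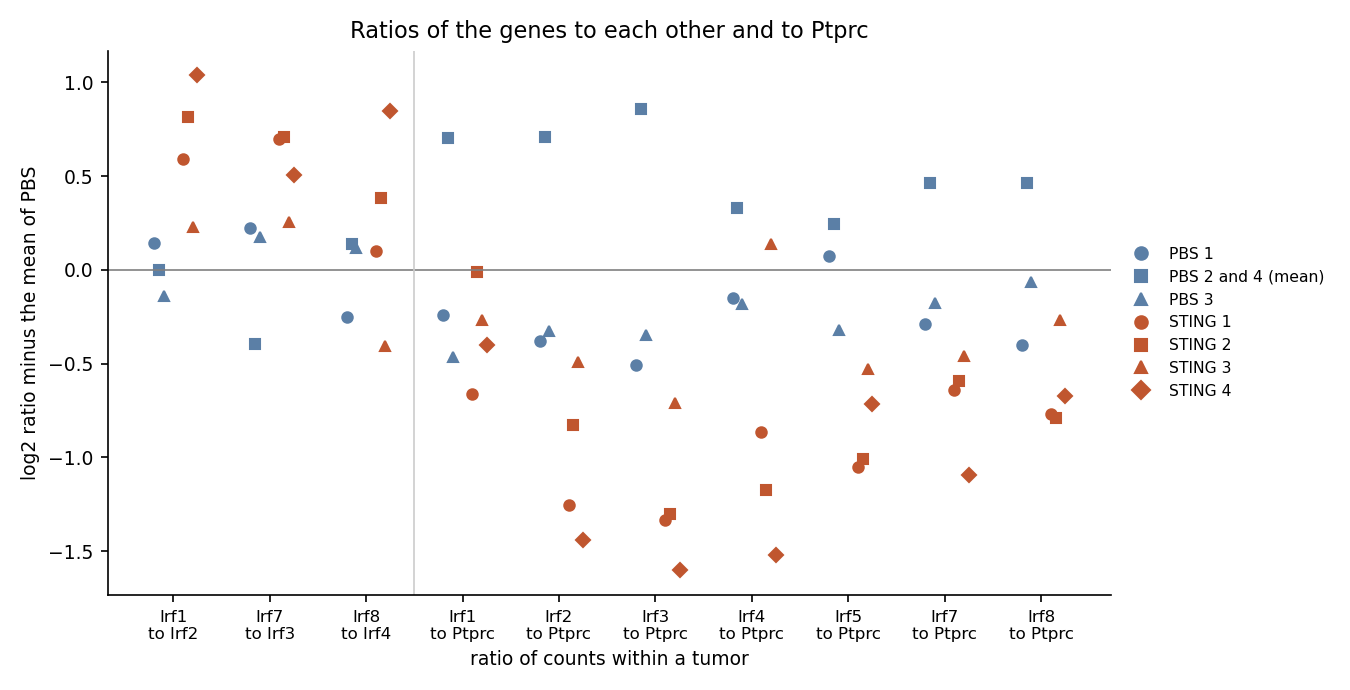
Log2 ratio of counts within each tumor, less the mean of the PBS samples (vertical axis), for 3 pairs of members and for each member against Ptprc (horizontal axis). Treated tumors (orange) lie above the PBS samples (blue) for Irf1 to Irf2 and Irf7 to Irf3, and below them for Irf2, Irf3, Irf5 and Irf7 to Ptprc.

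Markers of the cell types in which these factors act are given for their whole lists. The 7 pan-leukocyte genes summed to 1185, 686 and 1291 normalized counts in the PBS samples and to 1986, 1383, 1369 and 2193 in treated tumors 1 to 4. Lcp1, an actin-bundling protein of leukocytes, was the most abundant, and 4 of the 7 genes were higher at an unadjusted p under 0.05 in edgeR, beside 17.7% of the 750 genes. The groups did not overlap in this sum, and treated tumors 1 and 4 were the highest. They were also the highest for Irf3, Irf5, Irf7 and Irf8, but not for Irf1, Irf2 and Irf4. For 12 macrophage and monocyte genes the sums were 5388, 2107 and 5867 in the PBS samples and 6992, 5338, 5938 and 7621 in the treated tumors. C1qb, a complement subunit made by macrophages, was the most abundant. In that list 2 genes were higher (Emr1 and Ccr2) and 2 lower (Cd163 and Marco), beside 17.7% and 1.33% of the 750 genes. These genes were named after their values were seen, and 0 of the list were at the background. PBS tumors 2 and 4 were far below the other samples in this sum.

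T cell genes (12 on the panel, Cd3d with the highest mean count over all samples) summed to 217, 145 and 254 normalized counts in the PBS samples. In the treated tumors they summed to 487, 262, 278 and 446. The groups did not overlap in this sum either, and 4 of the 12 genes were higher at an unadjusted p under 0.05, beside the same 17.7%, while Cd4, Cd2, Cd5 and Cd6 were at or under the background. Sums of the 7 dendritic cell genes ran from 51.8 to 78.5 in PBS samples and from 69.7 to 118 in treated tumors. Ccr7 was the most abundant of them, 1 gene was higher (Itgax, the gene of CD11c), and Xcr1 and Cd207 were under the background. B and plasma cell genes, where Irf4 acts, had sums from 59.2 to 98.0 in PBS samples and from 47.7 to 105 in treated tumors, with Cd79b the most abundant. Of these 10 genes, 7 were under the background, among them Ms4a1 and Tnfrsf17. At an unadjusted p under 0.05, 0 were higher or lower, beside 17.7% and 1.33% of the 750 genes.

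In the 4 other lists the groups overlapped, except in the endothelial sum. NK cell sums (4 genes, Klrd1 the most abundant) ranged from 178 to 253 in the PBS samples and from 202 to 373 after treatment. Neutrophil sums (4 genes, S100a8 the most abundant, Mpo under the background) ranged from 311 to 557 and from 297 to 655. Epithelial sums ranged from 53.6 to 81.4 and from 34.2 to 75.0. Endothelial sums (6 genes, Pecam1 the most abundant) ranged from 280.3 to 467 and from 502 to 568. Of the 6 genes 1, Kdr, was higher at an unadjusted p under 0.05, beside 17.7% of the 750 genes. Whether any of these cell types accounts for the values of the IRF genes was not tested.

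**Figure D4:**
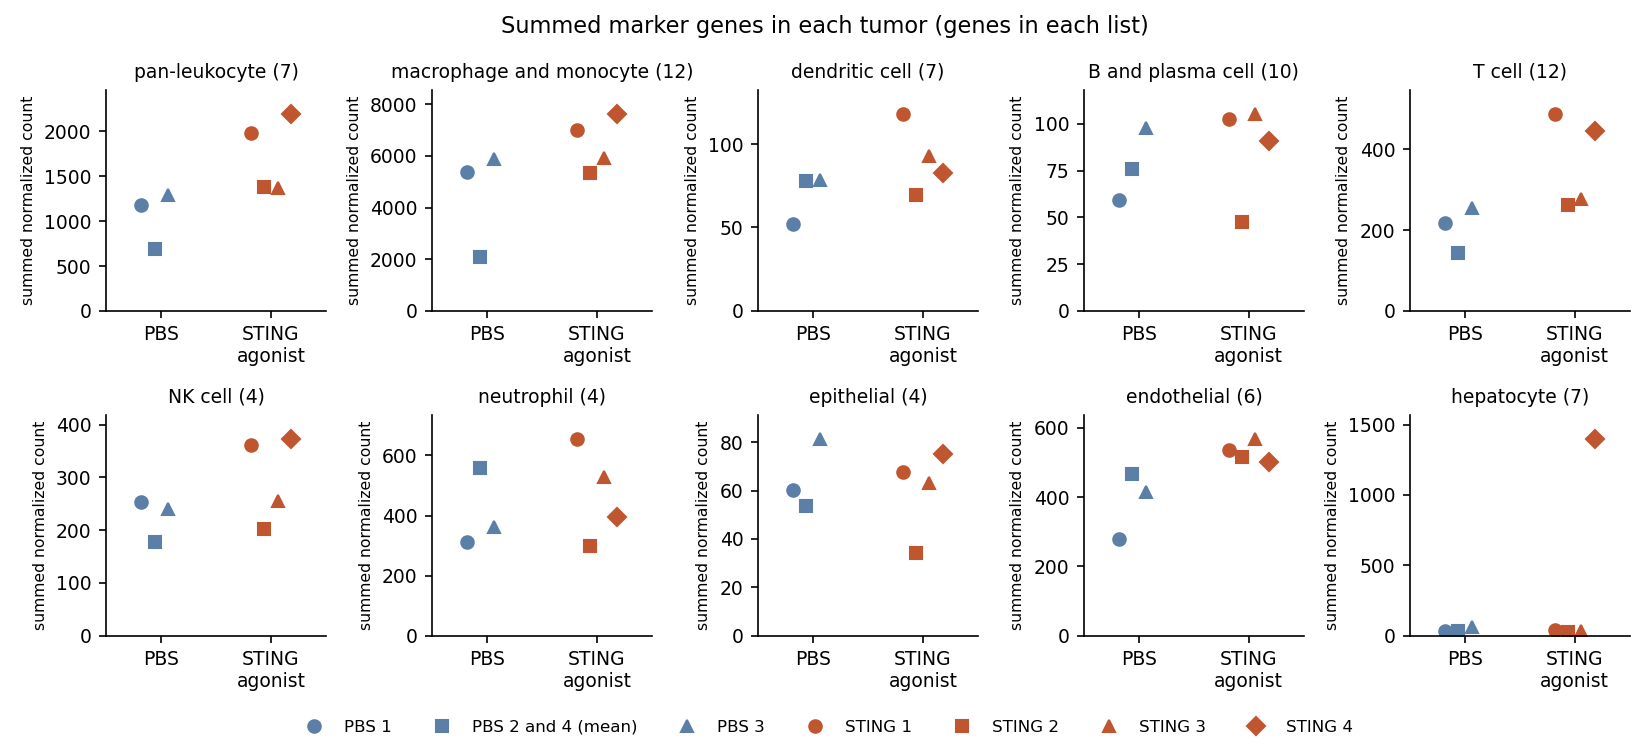
Summed normalized counts of each marker list (vertical axes, linear and from 0) in PBS samples (blue) and treated tumors (orange), with the number of genes in brackets. Pan-leukocyte sums run from 686 to 1291 in the PBS samples and from 1369 to 2193 after treatment, and the hepatocyte sum is high in treated tumor 4 alone.

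Of 22 sensors, adaptors and kinases upstream of IRF3, IRF5 and IRF7, 2 had an unadjusted p under 0.05 and a higher mean, 0 a lower one, beside 17.7% and 1.33% of the 750 genes. Their median log2 fold change was 0.17, beside 0.21 for the 750 genes, and turned to -0.07 with TMM and -0.08 with the size factors of DESeq2. Tlr9, the endosomal receptor for DNA, had means of 22.2 ± 11.3 and 50.2 ± 13.2 normalized counts (log2 fold change 1.16, SE 0.43, edgeR adjusted p = 0.220). Irak2, a kinase below Toll-like receptors, had means of 43.4 ± 12.2 and 74.5 ± 21.2 (log2 fold change 0.78, SE 0.33, adjusted p = 0.245). Ddx58, the RNA sensor RIG-I and the member with the highest normalized count, had means of 723 ± 160.0 and 960.3 ± 148 (log2 fold change 0.41, SE 0.20, adjusted p = 0.299). Without treated tumor 4, 0 of the 22 genes were higher, and with all 8 tumors as separate samples 4 were. Under these settings 79 and 186 of the 750 genes were higher. Tmem173, the gene of STING itself, is named here because the agonist binds its product. It had means of 86.9 ± 18.9 and 103 ± 2.63 (log2 fold change 0.24, SE 0.21, edgeR adjusted p = 0.584), near the panel median of 0.21. Its groups did not overlap, as for 3 of the 22 genes, beside 16.8% of the 750 genes. The log2 fold change of Tmem173 was 0.02 with TMM and 0.08 without PBS tumors 2 and 4, so no rise was settled for it.

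Of 9 interferon and receptor genes, 0 were higher or lower at an unadjusted p under 0.05, beside 17.7% and 1.33% of the 750 genes. Their median log2 fold change was -0.02 (-0.22 with TMM). The interferon genes themselves were near the background of 8.62 at this time point: mean counts were 15 for Ifna1, 6.14 for Ifna2, 7 for Ifna4, 9 for Ifnb1, 9.86 for Ifng and 7.14 for Ifnl2, all named after their values were seen. With TMM 1 of the 9 genes, Ifna1, was lower at an unadjusted p under 0.05 in edgeR (log2 fold change -1.31), and so it was without PBS tumors 2 and 4 (-1.56). Under these settings 40 and 17 of the 750 genes were lower. Ifng, the interferon upstream of Irf1, had means of 6.06 ± 2.48 and 12.7 ± 5.51 with groups that overlapped (log2 fold change 1.02, SE 0.49, edgeR adjusted p = 0.299). For Ifna2, Ifna4 and Ifnl2, with mean counts below the background, a difference was not detectable at this depth. Ifngr1, a subunit of the interferon-gamma receptor and the most abundant of the list, had means of 463 ± 27.1 and 546 ± 14.4 (log2 fold change 0.24, SE 0.13, edgeR adjusted p = 0.354), and its direction turned with TMM (-0.01).

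Of 11 JAK, STAT and Socs1 genes, 3 had an unadjusted p under 0.05 and a higher mean, 0 a lower one, beside 17.7% and 1.33% of the 750 genes. Their median log2 fold change was 0.08 and turned to -0.17 with TMM. With that scale 1 gene was higher and 1, Stat3, lower, beside 87 and 40 of the 750 genes. Stat2, a factor below type I interferon, had means of 409 ± 51.4 and 586 ± 98.7 (log2 fold change 0.52, SE 0.18, edgeR adjusted p = 0.203). Socs1, the feedback inhibitor of JAK kinases, had means of 242 ± 17.4 and 354 ± 79.8 (log2 fold change 0.55, SE 0.20, adjusted p = 0.217).

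Downstream, 13 of 21 interferon-gamma-induced genes known as IRF1 targets had an unadjusted p under 0.05 and a higher mean, 0 a lower one, beside 17.7% of the 750 genes higher, with a median log2 fold change of 0.55. With TMM 9 of 21 were higher, beside 11.6% of the 750 genes, and the median was 0.30. Cxcl9, a chemokine for T cells, had means of 181 ± 92.0 and 863 ± 315 normalized counts (log2 fold change 2.25, SE 0.44, edgeR adjusted p = 0.171). Cxcl10, a chemokine of the same receptor and the most abundant of the list, had means of 2981 ± 881 and 5405 ± 1041 (log2 fold change 0.86, SE 0.24, adjusted p = 0.175). Cxcl11, the third ligand of that receptor, had means of 44.1 ± 14.0 and 122 ± 50.1 (log2 fold change 1.46, SE 0.39, adjusted p = 0.171). Gbp5, a guanylate-binding protein of host defence, had means of 221 ± 83.4 and 569.8 ± 161 (log2 fold change 1.36, SE 0.34, adjusted p = 0.171). Cd274, the gene of the checkpoint ligand PD-L1, had means of 183 ± 75.6 and 429 ± 146 (log2 fold change 1.23, SE 0.35, adjusted p = 0.175). All 5, named for their low p or high count, were free of overlap between the groups. Of the whole list of 21 genes, 8 were free of overlap and higher, beside 16.8% of the 750 genes. Of the 21 genes, 4 had mean counts below the background (Ciita, Il12a, Il12b and Il27, named after their values were seen), and Il27, with a mean count of 4.43, is among the 13 and the 9. Without treated tumor 4, or without PBS tumors 2 and 4, 8 of the 21 genes were higher, beside 79 and 90 of the 750 genes. The same chemokine and checkpoint genes also respond to other factors, and whether IRF1 acted on them was not tested.

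Of 22 antiviral genes driven by ISRE, 8 had an unadjusted p under 0.05 and a higher mean, 0 a lower one, beside the same 17.7%, with a median log2 fold change of 0.43. With TMM the count was 2 higher (Irgm2 and Zbp1) and 1 lower (Ifitm2), beside 87 and 40 of the 750 genes. The median was 0.17 with TMM. Of the 22 genes, 2 (Mx1 and Ifi44l) had mean counts below the background. Zbp1, a sensor of Z-form nucleic acid, had means of 1386 ± 152 and 2777 ± 795 (log2 fold change 1.002, SE 0.24, edgeR adjusted p = 0.171). Irgm2, an immunity-related GTPase, had means of 224 ± 54.8 and 436 ± 99.8 (log2 fold change 0.96, SE 0.25, adjusted p = 0.171). Ccl5, a chemokine for T cells, had means of 321 ± 23.9 and 497 ± 108 (log2 fold change 0.63, SE 0.20, adjusted p = 0.181). Ifi44, an interferon-induced gene, had means of 1277 ± 219.6 and 2066 ± 534 with groups that overlapped (log2 fold change 0.69, SE 0.23, adjusted p = 0.191). Ifitm2, a membrane protein that limits virus entry and the most abundant of the list, had means of 5805 ± 1297 and 4823 ± 579 (log2 fold change -0.27, SE 0.18, adjusted p = 0.456). Of 8 transcription factors that act with or downstream of IRF4 and IRF8, 0 were higher or lower, beside 17.7% and 1.33% of the 750 genes. Their median log2 fold change was 0.10 and turned to -0.13 with TMM. Nfatc1, the most abundant of these and a factor of activated lymphocytes, had means of 59.5 ± 10.2 and 57.0 ± 6.22 (log2 fold change -0.06, SE 0.24, adjusted p = 0.926).

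**Figure D5:**
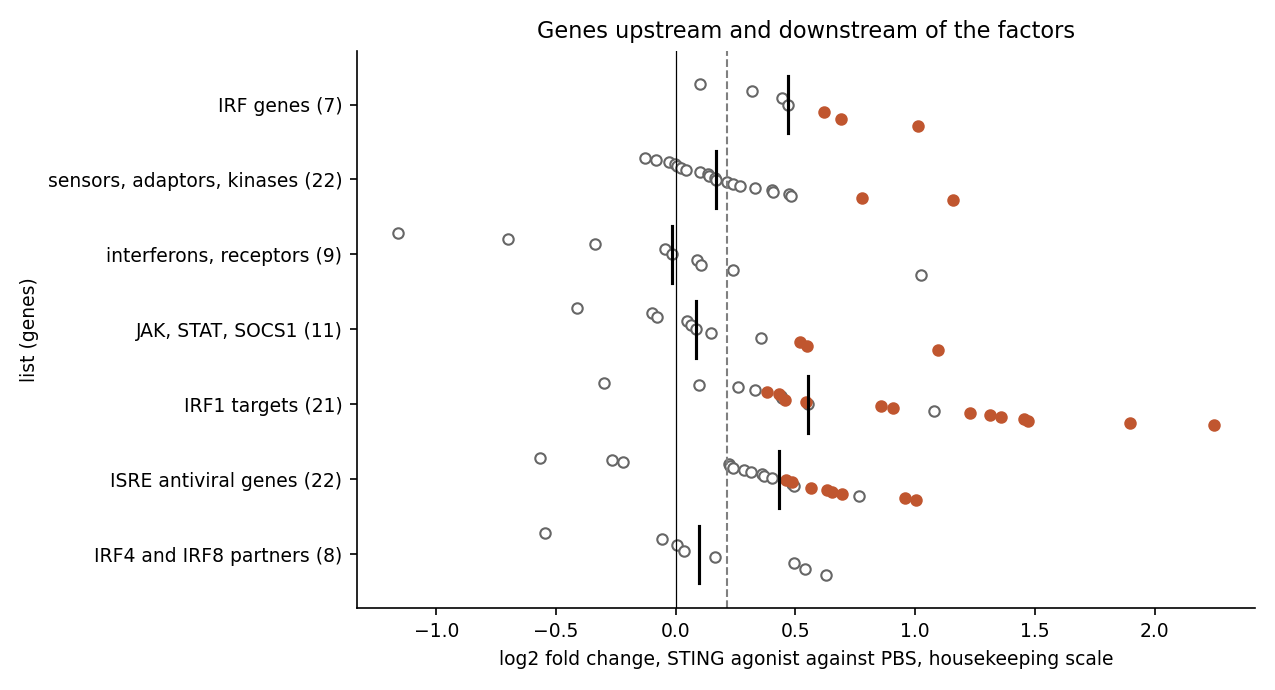
Log2 fold change after the STING agonist (horizontal axis, housekeeping scale) of each gene of the IRF family and of 6 lists around it (vertical axis, number of genes in brackets), filled where the unadjusted p is under 0.05. Black bars are medians and the dashed line is the median of the 750 genes, 0.21; the IRF1 target list has the highest median, 0.55.

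The genes whose log2 normalized counts followed each factor most closely over the 7 samples are given as descriptions, since samples share their group and their scale. For Irf1 they were H2-Eb1 (Pearson r = 0.981), Tgfb3 (0.978) and H2-Ab1 (0.967), of which the H2 genes encode class II antigen presentation proteins. For Irf2 they were Itga4 (0.971), Emr1 (0.968) and Ncf4 (0.964), and for Irf3 they were Il6ra (0.945), Cd79b (0.941) and Cd68 (0.937). For Irf5 they were Apoe (0.977), Fcer1g (0.960) and Cd48 (0.958). Irf7 was followed by Ccl4 (0.982), Lck (0.979) and C3ar1 (0.977), and Irf8 by Entpd1 (0.982), Ncf4 (0.981) and Itgb2 (0.981). Ncf4, a subunit of the phagocyte oxidase, was on the lists of both Irf2 and Irf8. Irf4 had too few counts for this description.

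Promoters are shown for Irf1, Irf2, Irf7 and Irf8, chosen after their values were seen, because interferon-gamma acts through GAS elements and type I interferon through ISRE. RefSeq promoter windows, from 250 bases before to 50 bases after a start site in build GRCm38.p6, were found for 7 of the 7 genes, with 9 windows in all since Irf1 and Irf8 had 2 start sites each. They were searched on both strands for the ISRE core GAAANNGAA and for the GAS element TTCNNNGAA, which reads the same on both strands, and no match of one overlapped the other. Of 32851 windows of the same length in the table, 8.56% held the ISRE core and 8.30% the GAS element. Below, the 250 bases before the start site are printed 5′ to 3′ with matches in capitals. They are chr11:53769764-53770013 (plus strand) for Irf1, chr8:46739495-46739744 (plus strand) for Irf2, chr8:120736108-120736357 (plus strand) for Irf8 and chr7:141266425-141266674 (minus strand) for Irf7.
Irf1: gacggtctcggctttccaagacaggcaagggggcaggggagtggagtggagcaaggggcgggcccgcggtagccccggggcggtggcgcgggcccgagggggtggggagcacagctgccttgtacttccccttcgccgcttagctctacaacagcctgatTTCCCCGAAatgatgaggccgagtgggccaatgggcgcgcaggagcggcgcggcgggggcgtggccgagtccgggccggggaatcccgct
Irf2: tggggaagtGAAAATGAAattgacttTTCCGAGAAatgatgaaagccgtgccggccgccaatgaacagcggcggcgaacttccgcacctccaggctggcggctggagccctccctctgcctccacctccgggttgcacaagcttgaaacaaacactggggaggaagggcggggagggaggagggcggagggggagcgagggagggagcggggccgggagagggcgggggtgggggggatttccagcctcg
Irf8: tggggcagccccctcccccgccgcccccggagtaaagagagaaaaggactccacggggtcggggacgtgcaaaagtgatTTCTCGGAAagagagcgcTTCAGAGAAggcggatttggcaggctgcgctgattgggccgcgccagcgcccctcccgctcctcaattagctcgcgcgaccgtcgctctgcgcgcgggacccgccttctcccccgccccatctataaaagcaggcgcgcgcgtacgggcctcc
Irf7: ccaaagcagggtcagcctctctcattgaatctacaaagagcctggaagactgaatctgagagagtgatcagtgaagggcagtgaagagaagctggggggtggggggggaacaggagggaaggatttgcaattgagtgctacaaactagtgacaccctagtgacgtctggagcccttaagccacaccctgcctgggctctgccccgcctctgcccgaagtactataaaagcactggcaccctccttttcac
The Irf1 window held 1 GAS match, from -90 to -82 relative to the start site. Irf2 held 1 ISRE core from -241 to -233 and 1 GAS match from -224 to -216, so it was the 1 member with both. In Irf8 2 GAS matches lay at -171 to -163 and -153 to -145, upstream of the start site printed here. No match to these letters was in the windows of Irf3, Irf4, Irf5 and Irf7 or at the other start sites of Irf1 and Irf8. A match is a description of the letters and no sign of binding, and binding was not measured.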

How the data were processed

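RNA of the 8 tumors was measured on the nCounter PanCancer Immune mouse panel. The counts that the authors deposited are whole numbers for 784 probes (750 immune genes, 20 housekeeping genes, 8 negative and 6 positive controls), neither scaled nor background-subtracted, and the lowest count in each sample was 1. The study's methods name nSolver and R and normalize to housekeeping expression. In treated sample 3, 2 empty lines were dropped. Groups and replicate numbers came from the sample labels, and age, dose, number of injections and day of collection from the study's text. For the days of injection that text refers to its figures.

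Each sample was scaled by its housekeeping genes (geometric mean). In R 4.3.3, edgeR 4.0.16 fitted all 750 genes, unfiltered and without covariates, by its quasi-likelihood test with Benjamini-Hochberg adjustment; ratios and figures used Python 3.11.15. The SE was the log2 fold change divided by the square root of the F statistic. PBS controls 2 and 4 entered as the rounded mean of their counts. Differences of log2(normalized count + 1) and of log2 ratios were tested by two-sided exact permutation over 35 arrangements. The fit was tested on simulated data. Members and lists were chosen with earlier results of these data known. Named were all members, the 4 genes of each list with the lowest unadjusted p under 0.05 and its most abundant gene, the 3 immune genes outside the family most correlated with each member with a mean count of at least 20, and the most abundant and defining markers; other names were chosen after their values were seen, and not every gene that this rule names is used here. Marker lists covered pan-leukocyte, macrophage, dendritic, B and plasma, T, NK, neutrophil, epithelial, endothelial and hepatocyte genes. Alternatives were TMM, size factors of DESeq2 1.42.0, scaling by positive controls or by housekeeping genes with 100 counts or more, keeping genes that averaged 20 counts, the Wald test of DESeq2, limma 3.58.1 with and without background subtraction, the methods' t-test, a pseudocount of 5 in ratios, all 8 tumors as separate samples, the replicate block, and each tumor left out. Promoters and symbols came from RefSeq (GRCm38.p6).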

Additional observations from a re-analysis of the deposited data

How the results depend on the processing

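Of 83 log2 fold changes of the members under other settings, 81 kept their direction, as did 56 of 56 with 1 tumor left out, though sizes and unadjusted calls moved. Irf3 turned to -0.15 with TMM and -0.16 with the size factors of DESeq2, and Irf1 had an adjusted p under 0.05 in the Wald test of DESeq2 (1.01, adjusted p = 0.00211) and without treated tumor 3 (range with 1 tumor left out 0.88 to 1.14). Irf4 had no value under the filter at a mean of 20 counts and no adjusted p in DESeq2. In the exact permutation tests, Irf1 reached p = 0.0286 with the positive controls (difference 1.05) and all 8 tumors (1.04). Irf7 reached it with housekeeping genes of at least 100 counts (0.63), with all 8 tumors (0.75) and without PBS tumor 2 (0.68). The difference for Irf7 ranged from 0.49 to 0.78 with 1 tumor left out. Irf2 lost its p of 0.0286 with TMM (difference 0.0813), the size factors (0.0665) and the positive controls (0.38). Irf3 turned to -0.15 and -0.17 with TMM and the size factors.

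Members higher at an unadjusted p under 0.05 numbered 1 with TMM, the size factors, the positive controls and without PBS tumors 2 and 4, and 1 to 4 with 1 tumor left out. Of all 750 genes, 133 were higher and 10 lower; 87 and 40 were with TMM, and 81 and 45 with the size factors. Genes higher numbered 89 with the positive controls and 90 without PBS tumors 2 and 4. Genes lower numbered 16 in the methods' t-test and 17 without PBS tumors 2 and 4. With 1 tumor left out, 77 to 153 genes were higher, 7 to 21 lower, and 0 to 7 had an adjusted p under 0.05; DESeq2 gave 52. The causes were not tested.

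Among ratios, all 8 tumors brought Irf1 to Irf2 (0.67), Irf7 to Irf3 (0.64) and Irf2 to Ptprc (-1.19) to an exact p of 0.0286, and 6 of the 10 ratios to an adjusted value under 0.05, with PBS tumors 2 and 4 counted apart. Irf3 to Ptprc lost its exact p under 0.05 with a pseudocount of 5 (-1.177) and without PBS tumor 2 (-1.21), with a range of -1.49 to -1.12 with 1 tumor left out. Irf8 to Irf4, which is not read because Irf4 lay near the background, was 0.23, and -0.0564 with background subtraction.

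List counts at an unadjusted p under 0.05 are read beside those of the 750 genes under the same setting. Of the 750 genes, 87 were higher with TMM, 81 with the size factors, 89 with the positive controls and 90 without PBS tumors 2 and 4. With all 8 tumors 186 were higher, in the methods' t-test 169, and with 1 tumor left out 77 to 153. Upstream genes higher numbered 1 with TMM, the size factors, the positive controls and without PBS tumors 2 and 4. They numbered 4 with all 8 tumors and in the methods' t-test, and 0 to 2 with 1 tumor left out. Interferon and receptor genes higher numbered 2 with all 8 tumors, 1 in the methods' t-test and 0 to 1 with 1 tumor left out. JAK and STAT genes higher numbered 1 with TMM, the size factors and the positive controls, and 1 to 4 with 1 tumor left out. IRF1 targets higher numbered 8 without PBS tumors 2 and 4 and 8 to 13 with 1 tumor left out. ISRE genes higher numbered 2 with TMM and the size factors, 5 with the positive controls, and 5 to 10 with 1 tumor left out. Ifngr1 turned to -0.0133 and -0.0262 with TMM and the size factors, and Nfatc1 to 0.0864 without PBS tumors 2 and 4.

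Equal replicate numbers did not pair the samples: correlations of their deviations were -0.06, -0.08, -0.28 and -0.13. With the replicate block on all 8 tumors, 159 genes were higher and 3 members (Irf1, Irf7 and Irf8) stayed under an unadjusted p of 0.05. Depth limits Irf4 and the interferon genes, whose counts lie near the background.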
